A study of Mus musculus with 66 samples.

Results

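The choroid plexus genes examined here were 10 transcripts chosen from a list of genes known for their expression in the choroid plexus, and all 10 were found by symbol and Ensembl gene ID among the 45706 gene IDs of the expression tables. Their levels were read in 66 mouse RNA-seq libraries in 20 groups of tissue and genotype, and were used to describe how much choroid plexus RNA each library held. The study compared high-stepping mice homozygous for spontaneous *Rorb* mutations with wild-type mice. *Rorb* h1/h1 mice carry a duplication that takes in the first exon particular to the *Rorb1* transcript, on C57BL/6J. In *Rorb* h2/h2 mice, on B6(Cg)-Tyr c-2J/J, the causal mutation is not known, and the same holds for *Rorb* h3/h3 mice on that background. *Rorb* h4/h4 mice carry a premature stop on a C57BL/6J-derived stock that also bears an *Il1r1* mutation, and *Rorb* h5/h5 mice have lost the *Rorb1* start codon on DBA/1J. The controls were C57BL/6J for the first 4 alleles, the same 3 libraries of each tissue serving all of them, and DBA/1J for *Rorb* h5/h5.

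Brain was cut sagittally and taken as a hemisection, and spinal cord was pushed out of the column with buffer. By sample number, both came from the same 24 animals at 7.9 to 9.6 weeks of age. These were 3 each of C57BL/6J, *Rorb* h1/h1, DBA/1J and *Rorb* h5/h5, and 4 each of *Rorb* h2/h2, h3/h3 and h4/h4. Cortex, hippocampus and cerebellum were dissected from 3 DBA/1J and 3 *Rorb* h5/h5 animals at 7.0 weeks. By sample number, the 3 regions of a replicate came from 1 animal.

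The choroid plexus is a sheet of ciliated epithelium around a fenestrated capillary core, and it lies in the ventricles of the brain. It secretes cerebrospinal fluid and forms the barrier between blood and that fluid. The spinal cord has a central canal but no choroid plexus. The hippocampus borders the lateral ventricle and the cerebellum lies over the ventricle of the hindbrain. Among the genes, *Ttr* codes for transthyretin, the carrier of thyroxine and of retinol-binding protein. *Sostdc1* codes for a secreted antagonist of BMP and Wnt signalling, and *Enpp2* for autotaxin, which makes lysophosphatidic acid and is also made by oligodendrocytes. *Kl* codes for klotho, *Folr1* for a folate receptor and *Aqp1* for a water channel. *Slc4a5* codes for a sodium bicarbonate cotransporter, *Clic6* for a member of the chloride intracellular channel family and *Cldn2* for a tight junction protein of leaky epithelia. *Otx2* codes for a homeodomain transcription factor of the choroid plexus and of cerebellar granule cell precursors.

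RefSeq promoter windows, each holding the 250 bases before and the 50 bases after a start site, were on hand for 5 of the genes, namely *Kl*, *Aqp1*, *Slc4a5*, *Cldn2* and *Otx2*, the last with 4 start sites. They were searched on both strands for GGATTA, a core bound by OTX homeodomains, because *Otx2* is itself among the genes that varied together. The letters were found in 1 of the 8 windows, a window of *Otx2* itself, 211 bases before its start site, against 2320 of 32851 promoter windows of the same length (7.06%). That window is shown with those of *Kl* and *Slc4a5*, in which the letters did not occur. Among the choroid plexus genes examined here, these 2 had the highest Pearson correlation with *Ttr* in the brain. Capitals mark the motif, and the absence of a match says only that these letters are not in the window.
Otx2 (chr14:48665060-48665359, minus strand, GRCm38.p6): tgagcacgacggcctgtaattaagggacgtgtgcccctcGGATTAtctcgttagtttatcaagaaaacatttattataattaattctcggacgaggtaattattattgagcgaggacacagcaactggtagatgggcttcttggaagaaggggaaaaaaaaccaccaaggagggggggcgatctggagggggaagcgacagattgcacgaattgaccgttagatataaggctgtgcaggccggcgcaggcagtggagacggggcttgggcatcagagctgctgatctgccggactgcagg
Kl (chr5:150952357-150952656, plus strand, GRCm38.p6): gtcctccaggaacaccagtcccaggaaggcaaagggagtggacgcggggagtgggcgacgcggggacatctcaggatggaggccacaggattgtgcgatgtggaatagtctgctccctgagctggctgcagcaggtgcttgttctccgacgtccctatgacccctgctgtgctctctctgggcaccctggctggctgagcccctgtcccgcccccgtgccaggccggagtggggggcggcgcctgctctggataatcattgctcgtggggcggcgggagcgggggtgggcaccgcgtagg
Slc4a5 (chr6:83237125-83237424, plus strand, GRCm38.p6): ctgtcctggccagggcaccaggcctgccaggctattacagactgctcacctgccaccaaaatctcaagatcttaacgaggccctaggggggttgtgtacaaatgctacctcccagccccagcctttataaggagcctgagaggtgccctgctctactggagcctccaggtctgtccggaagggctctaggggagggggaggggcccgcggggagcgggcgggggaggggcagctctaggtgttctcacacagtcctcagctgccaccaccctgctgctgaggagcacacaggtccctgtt

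The libraries held 32889755 to 59120536 expected counts each, with a median of 42391893, and no 2 replicates held identical values. Levels are given below as TPM (transcript abundance scaled for gene length and library size), and tests were run on the counts. *Rorb* was lowest in *Rorb* h4/h4 mice, at 2.57 to 3.57 TPM in brain against 10.99 to 13.14 TPM in C57BL/6J, and it was higher in *Rorb* h5/h5 brains (15.4 to 18.24 TPM) than in DBA/1J brains (10.59 to 13.75 TPM). The spinal cord *Hox* genes summed to 131 to 156 TPM in cord and to no more than 0.26 TPM elsewhere, and the 4 cerebellar markers summed to 3026 to 3275 TPM in cerebellum and to 10.8 to 28.8 TPM in cortex and hippocampus. The 3 dissected libraries of *Rorb* h5/h5 replicate 3, labelled female, carried *Ddx3y* at 57.8 to 86.2 CPM (counts scaled for library size) and *Xist* at 0 to 0.320 CPM, whereas the 35 other libraries labelled female carried *Xist* at 865 to 1702 CPM. Those groups were left as labelled. The brain of DBA/1J replicate 1 carried the cerebellar markers at 27.4 TPM in sum, whereas the other 23 brains carried them at 241 to 578 TPM.

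In the RefSeq annotation of GRCm38.p6 the genes lie at 10 loci: *Ttr* at chr18:20664209-20674326, *Sostdc1* at chr12:36314169-36318452, *Enpp2* at chr15:54838901-54952789, *Kl* at chr5:150952607-150993817, *Folr1* at chr7:101858331-101870788, *Aqp1* at chr6:55336299-55348555, *Slc4a5* at chr6:83207580-83304945, *Clic6* at chr16:92498147-92541241, *Cldn2* at chrX:139800808-139811386 and *Otx2* at chr14:48656781-48667644.

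All 10 genes were detected in every brain library, and *Ttr* had the highest median level of them. *Ttr* ranged from 358 TPM in *Rorb* h2/h2 replicate 4 to 1101 TPM in *Rorb* h5/h5 replicate 3, with a median of 636 TPM over the 24 brains. *Enpp2* followed at 178 to 428 TPM. The other 8 genes lay between the 0.78 TPM of *Slc4a5* and the 15.9 TPM of *Kl*, and in order of their medians they were *Kl* (10.9 TPM), *Clic6* (8.76 TPM), *Folr1* (7.34 TPM), *Otx2* (6.64 TPM), *Sostdc1* (4.07 TPM), *Aqp1* (3.12 TPM), *Cldn2* (2.40 TPM) and *Slc4a5* (2.05 TPM). Neighbours in that order overlapped in their ranges in every case except *Enpp2* and *Kl*; the ranges of *Ttr* and *Enpp2* met between 358 and 428 TPM.

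In the spinal cord 9 of the 10 genes were lower than in the brain and *Enpp2* was higher. *Otx2* had no count in any of the 24 cords, which put the brains at least 1394-fold higher on the C57BL/6J-derived backgrounds (18 animals) and at least 446-fold higher on DBA/1J (6 animals), taking 3 counts over all cords of a background as the limit that a count of 0 allows. *Ttr* had 0 to 27 counts per cord (0 to 1.14 TPM), and summed over libraries it was 4118-fold higher in brain than in cord on the C57BL/6J-derived backgrounds and 5296-fold higher on DBA/1J. The remaining secreted and transport genes kept a low level in cord. *Kl* was at 1.58 to 2.87 TPM, *Clic6* at 0.58 to 1.5 TPM, *Slc4a5* at 0.24 to 1.54 TPM, *Sostdc1* at 0.32 to 2.22 TPM and *Folr1* at 0 to 1.90 TPM.

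All 10 genes passed the edgeR quasi-likelihood test between cord and brain on both backgrounds, beside 79.0% of all genes on the C57BL/6J-derived backgrounds and 63.1% on DBA/1J, so passing was not particular to them. The median log2 fold change of the 10 was −3.35 and −3.28 on these backgrounds, whereas that of all genes was −0.01 and 0.00. *Cldn2* (−4.68 and −4.0), *Aqp1* (−3.95 and −3.40), *Folr1* (−3.52 and −4.07) and *Clic6* (−3.17 and −3.15) fell most after *Ttr* and *Otx2*. *Slc4a5* fell by 1.40 and by 2.25. *Enpp2* rose in the cord by 0.20 ± 0.04 (SE, adjusted p = 1.56e-05 by edgeR) on the C57BL/6J-derived backgrounds and by 0.51 ± 0.14 (adjusted p = 0.00531 by edgeR) on DBA/1J. The 6 oligodendrocyte markers summed to 16268 to 23971 TPM in the cords and to 4380 to 6931 TPM in the brains, and their part in the level of *Enpp2* was not tested.

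**Figure D1:**
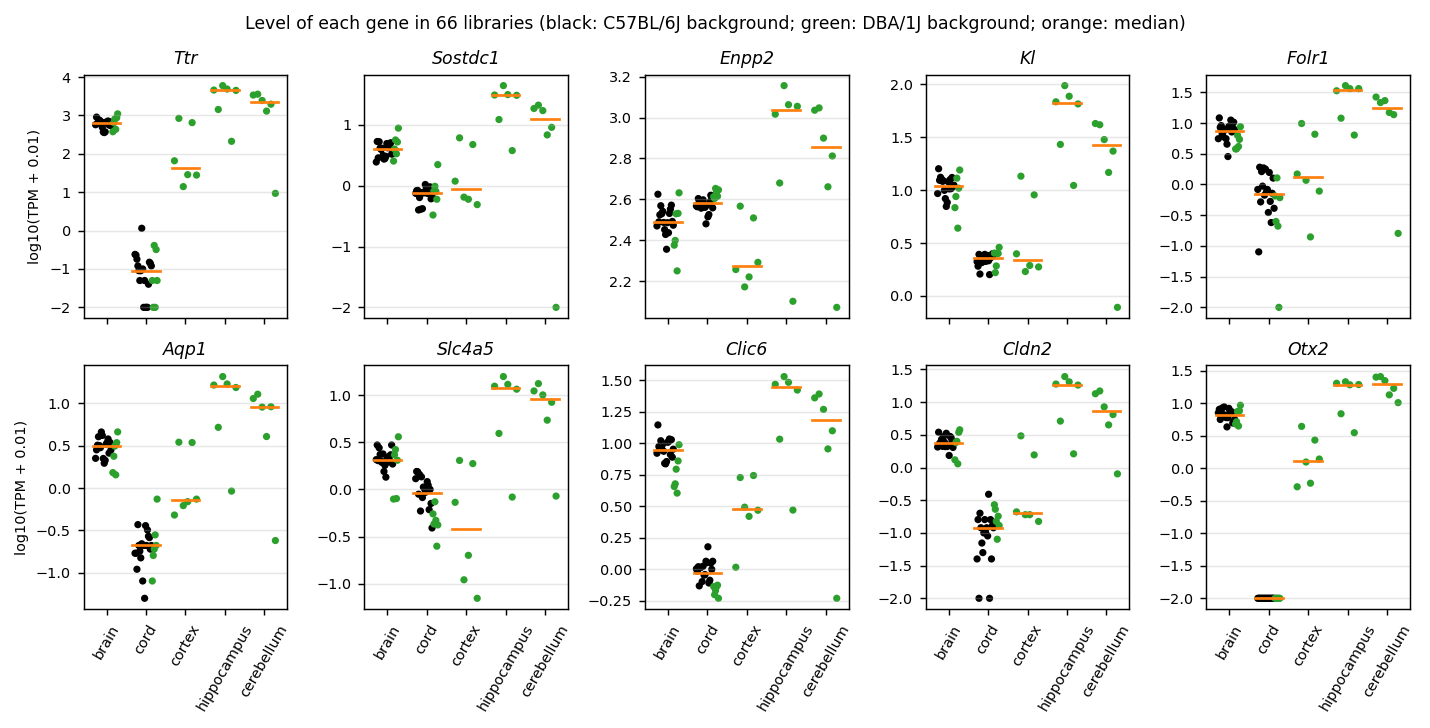
TPM of each gene in all 66 libraries on a log10 axis (0.01 TPM added), by tissue; each point is 1 library, black for C57BL/6J-derived and green for DBA/1J backgrounds, and the orange bar is the tissue median. Hippocampus and cerebellum reach the highest levels, *Ttr* and *Otx2* are near or at 0 in cord, and *Enpp2* alone stays at brain level in cord.

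Within a group, animals differed more in these genes than in most. The within-group standard deviation (SD) of log2 CPM had a median over the 10 genes of 0.41 in brain, against 0.14 for all genes tested, and none of them lay among the 5% of genes with the largest spread, which began at 0.68. *Slc4a5* had the largest SD in brain (0.55) and *Enpp2* and *Otx2* the smallest (0.27 each). In the dissected regions the spread was larger with all libraries. The median SD of the 10 genes was 1.55 in cortex, 1.56 in hippocampus and 1.79 in cerebellum, against 0.15, 0.12 and 0.12 for all genes. In cerebellum this rested on 1 library, since the median was 0.26, below that of brain, without *Rorb* h5/h5 replicate 3, and in hippocampus it was 0.81 without *Rorb* h5/h5 replicate 2. In cortex it stayed between 1.26 and 1.76 on leaving out any 1 library. With all libraries, all 10 were among the most variable 1% of genes in hippocampus, and 8 of 10 were so in cortex and in cerebellum. *Enpp2* in cortex (SD 0.59) and *Otx2* in cerebellum (SD 0.21) were the 2 cases that fell short of the top 5%, which began at 0.64 and 0.57. In cord, the 8 genes tested had a median SD of 0.37 against 0.11 for all genes. *Enpp2* was at 0.06 there, below the median of all genes, and *Folr1* and *Cldn2* were in the top 5%.

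**Figure D2:**
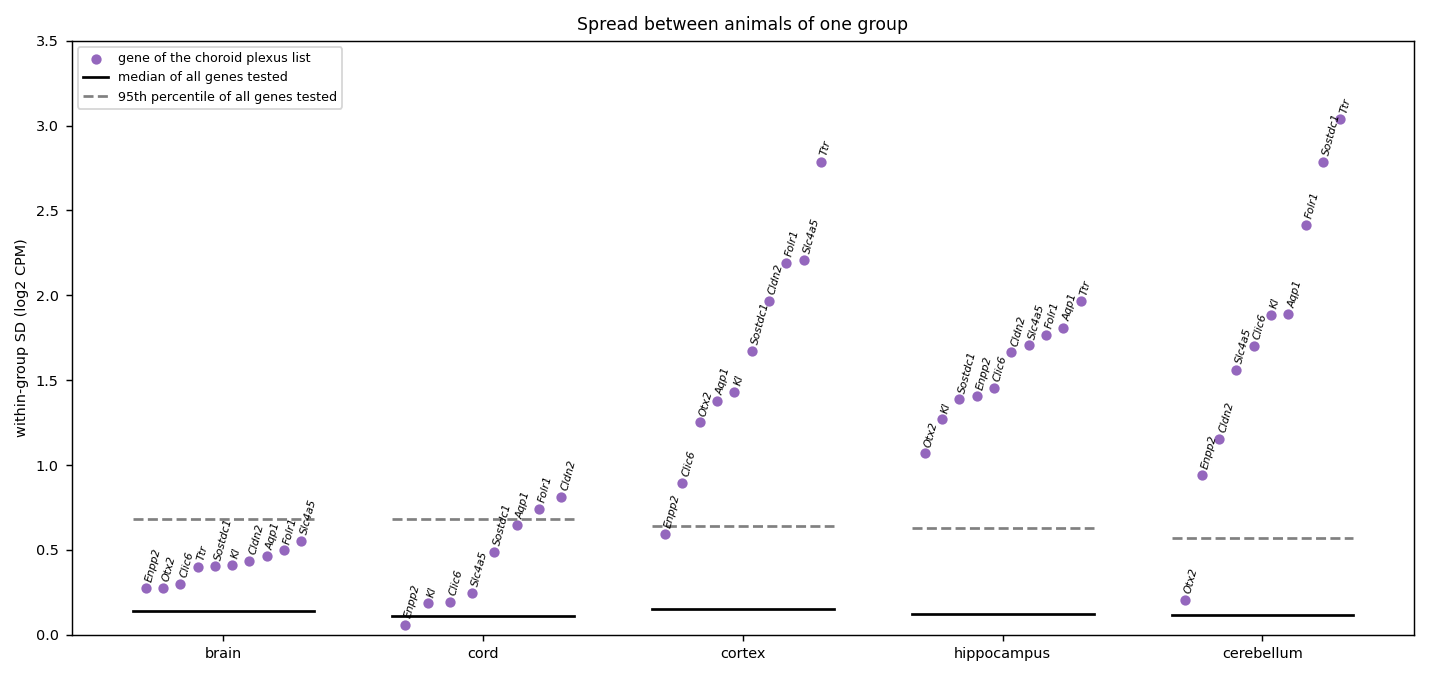
Within-group SD of log2 CPM between animals (y axis) for each gene in each tissue, with the median (black line) and 95th percentile (dashed line) of all genes tested. The choroid plexus genes lie between those lines in brain and mostly far above both in cortex, hippocampus and cerebellum; *Otx2* in cerebellum and *Enpp2* in cord and cortex lie lower.

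In the brain the genes varied together from animal to animal. *Ttr* was at 573, 906 and 626 TPM in the 3 C57BL/6J brains, at 670, 757 and 606 TPM in *Rorb* h1/h1, at 683, 490, 371 and 358 TPM in *Rorb* h2/h2, at 373, 674, 645 and 717 TPM in *Rorb* h3/h3, and at 564, 676, 540 and 530 TPM in *Rorb* h4/h4. On DBA/1J it was at 377, 650 and 810 TPM in the controls and at 435, 869 and 1101 TPM in *Rorb* h5/h5. The ranges of all 7 groups overlapped, and the highest brain of a group held 1.25 to 2.53 times the *Ttr* of its lowest. Replicate 1 was the lowest and replicate 3 the highest for all 10 genes in DBA/1J brains, and the same was true in *Rorb* h5/h5 brains. In the other 5 groups 5 to 9 of the 10 genes shared the most common highest library and 3 to 9 the most common lowest, with *Rorb* h1/h1 (5 highest) and *Rorb* h4/h4 (3 lowest) the least alike. *Clic6* and *Enpp2* had their highest library where *Ttr* had its highest in 7 of 7 groups, *Kl* in 6, *Aqp1*, *Otx2*, *Sostdc1* and *Cldn2* in 5, and *Folr1* and *Slc4a5* in 4.

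The joint variation was described by the correlation, over 24 brains, of each gene's deviation from its group mean (log2 CPM) with that of *Ttr*. Pearson's r was 0.92 for *Kl* and *Slc4a5*, 0.90 for *Clic6* and *Folr1*, 0.89 for *Aqp1* and *Enpp2*, 0.88 for *Sostdc1*, 0.80 for *Cldn2* and 0.71 for *Otx2*. Spearman's rho ran from 0.67 for *Otx2* to 0.91 for *Kl*. Over these 9 relations an unadjusted two-sided permutation p came from 100000 shuffles within groups. It was between 1e-05 and 0.004 for r and between 1e-05 and 0.0026 for rho, and 1e-05 is the smallest these permutations can give. Because the genes were chosen as markers of 1 tissue with earlier results known, these p describe the relations and give no support. The shuffles also treat the animals of a group as exchangeable, although ages differed within some groups. Without the 2 brains farthest from the median of *Ttr*, replicate 1 of *Rorb* h5/h5 and of *Rorb* h3/h3, r was between 0.60 (*Otx2*) and 0.90 (*Kl*). Among 18722 genes the 9 ranked between the second and the thirty-sixth in likeness to *Ttr*, and the median r over all genes was 0.00. The libraries of a group share their genotype but not always their age: *Rorb* h2/h2 replicates 3 and 4 were 9.4 weeks old and replicates 1 and 2 were 7.9, and *Rorb* h3/h3 replicate 1 was 9.6 weeks old against 8.0 to 8.3. These 3 oldest animals had the 3 lowest *Ttr* values of the 18 brains on C57BL/6J-derived backgrounds (371, 358 and 373 TPM). In DBA/1J and in *Rorb* h5/h5, replicate 3 was the highest brain for all 10 genes and the youngest. It was 8.4 weeks old in both, against 8.7 and 8.9 in DBA/1J and 8.7 in *Rorb* h5/h5. The part of age in the joint variation was not tested. Such correlations do not tell apart the amount of tissue from the level per cell: in bulk samples fewer cells of a type and less RNA per cell cannot be told apart.

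The genes outside the list most like *Ttr* in brain were *Kcne2* (r = 0.95), a potassium channel subunit, *Tmem72* (0.91), *Trpv4* (0.88), a cation channel, *Abca4* (0.84), *Ccdc66* (0.82), *Zfp696* (0.81), *Ecrg4* (0.81), *Mfrp* (0.81), *Pcdhga9* (0.80) and *Rbm47* (0.79). Of these, *Kcne2*, *Tmem72*, *Trpv4*, *Abca4*, *Ecrg4* and *Mfrp* belonged to a second list of 25 choroid plexus genes, of which 14 stood among the 100 genes most like *Ttr*. In the 18 dissected libraries the *Ttr* values fell into separate clusters and no coefficient or ranking is given for them.

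The dissected regions showed the largest differences between animals of 1 genotype. In the cortex *Ttr* was at 65.9, 840 and 14.0 TPM in DBA/1J replicates 1 to 3 and at 28.7, 650 and 27.9 TPM in *Rorb* h5/h5. Replicate 2 was the highest of its genotype for all 10 genes in both genotypes, and for *Ttr* the highest cortex held 60.1 times the lowest. *Cldn2* was at 0.20, 3.04 and 0.18 TPM in DBA/1J cortex and at 0.18, 1.55 and 0.14 TPM in *Rorb* h5/h5 cortex. *Slc4a5* was at 0.72, 2.02 and 0.10 TPM in DBA/1J and at 0.19, 1.87 and 0.06 TPM in *Rorb* h5/h5. *Enpp2* varied least in cortex, with 181, 369 and 148 TPM in DBA/1J and 166, 323 and 196 TPM in *Rorb* h5/h5.

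The hippocampus showed the reverse in the same animals. *Ttr* was at 4591, 1430 and 5989 TPM in DBA/1J hippocampus and at 4880, 212 and 4503 TPM in *Rorb* h5/h5. Replicate 2 was the lowest of its genotype for all 10 genes in both genotypes, and for *Ttr* the *Rorb* h5/h5 replicate 2 hippocampus lay below its own cortex, which held 650 TPM. In that animal *Kl*, *Otx2* and *Cldn2* were higher in hippocampus than in cortex and the other 6 genes were lower. *Kl* was at 68.3, 27.0 and 97.2 TPM in DBA/1J and at 77.1, 11.1 and 65.2 TPM in *Rorb* h5/h5. *Folr1* was at 33.5, 11.99 and 40.7 TPM and at 36.3, 6.36 and 36.4 TPM. *Sostdc1*, the secreted antagonist, was at 31.2, 12.3 and 44.4 TPM and at 31.6, 3.78 and 30.8 TPM. The genes of the second choroid plexus list moved with them, summing to 327 and 198 TPM in the replicate 2 hippocampi and to 705 to 923 TPM in the other 4. They summed to 224 and 188 TPM in the replicate 2 cortices and to 121 to 132 TPM in the others. The list also summed to 80.2 to 282 TPM in the cords, which have no choroid plexus, so these sums are not of choroid plexus alone.

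Other markers moved in the *Rorb* h5/h5 replicate 2 hippocampus as well. Its 4 hippocampal markers summed to 87.2 TPM, whereas the other 5 hippocampi had 135 to 147 TPM, and its 8 ependymal markers summed to 52.4 TPM against 67.5 to 95.5 TPM. Its 8 meningeal fibroblast markers summed to 162 TPM against 80.3 to 128 TPM. Its sums were also the lowest of all hippocampi for oligodendrocyte (2627 TPM), striatal (40.9 TPM), thalamic and habenular (32.0 TPM) and cortical markers (53.9 TPM). They were the highest for neuronal (3732 TPM), blood (1149 TPM) and pituitary markers (218 TPM). DBA/1J replicate 2 had hippocampal markers at 141 TPM and ependymal markers at 68.8 TPM, within the range of the others. In the cortex the striatal markers were at 78.7 TPM in DBA/1J replicate 1 and at 242 TPM in DBA/1J replicate 2, and at 432 to 473 TPM in the other 4 libraries. The part of these marker differences in the levels of the choroid plexus genes was not tested.

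**Figure D3:**
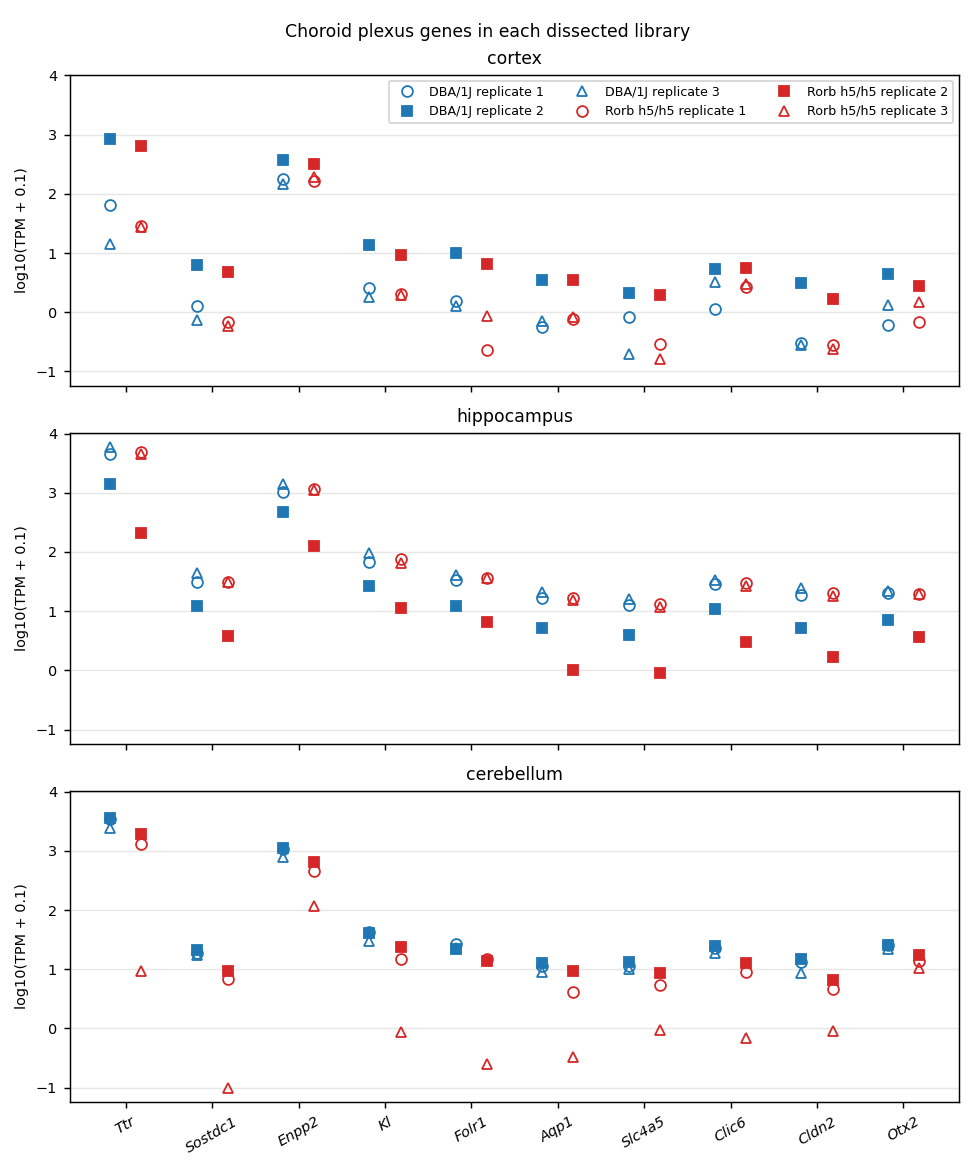
log10(TPM + 0.1) of the 10 genes in each of the 18 dissected libraries, one panel per region; blue is DBA/1J, red is *Rorb* h5/h5, and the marker shape is the replicate, which is the same animal in all panels. Replicate 2 (filled squares) is highest in cortex and lowest in hippocampus in both genotypes, and *Rorb* h5/h5 replicate 3 is lowest in cerebellum, with *Otx2* as the gene that drops least.

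In the cerebellum a single library stood apart. *Ttr* was at 3401, 3584 and 2455 TPM in DBA/1J cerebella, at 1298 and 1967 TPM in *Rorb* h5/h5 replicates 1 and 2 and at 9.33 TPM in replicate 3. Replicate 3 was the lowest of its genotype for all 10 genes, with 0 counts of *Sostdc1* and 1 count of *Folr1*. *Kl* was at 0.77 TPM there and at 14.7 to 42.6 TPM in the other 5 cerebella. *Clic6* was at 0.58 TPM against 8.99 to 24.5 TPM, and *Aqp1* was at 0.23 TPM against 4.04 to 12.8 TPM. *Otx2* departed from the others, with 10.2 TPM in that library against 13.5 and 17.0 TPM in the other *Rorb* h5/h5 cerebella and 22.3 to 25.8 TPM in DBA/1J, so that its highest value was 2.52 times its lowest whereas that of *Ttr* was 384 times its lowest. The cerebellar markers were at 3275 TPM in the library with little *Ttr* and at 3026 to 3211 TPM in the others. Its ependymal markers were at 45.9 TPM against 57.2 to 72.2 TPM.

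Over all 3 cerebella per genotype, 9 of the 10 genes were lower in every *Rorb* h5/h5 library than in every DBA/1J library, *Aqp1* being the gene that overlapped; among all genes with a mean of at least 0.1 TPM, 10.04% did not overlap. The log2 fold changes ran from −0.90 (*Otx2*) to −1.84 (*Sostdc1*), with a median of −1.51 against 0.00 for all genes, and all 25 genes of the second list were below 0 with a median of −1.28. At an unadjusted p under 0.05 by edgeR there were 7 of 10, beside 5.62% of all genes. The genes varied together between animals, so the 9, 7 and 25 are not separate observations of a difference. No gene of the 10 passed an adjusted p of 0.05 in the edgeR test, beside 0.0120% of all genes. *Otx2* came closest (log2 fold change −0.90 ± 0.13 SE, adjusted p = 0.0828 by edgeR), and DESeq2 called that gene alone of the 10, beside 48 of all genes. Without *Rorb* h5/h5 replicate 3 the fold changes were −0.76 to −1.26 with a median of −0.93, and *Sostdc1* passed (−1.26, adjusted p = 0.0150 by edgeR), beside 8 of all genes. Without replicate 2 of *Rorb* h5/h5, *Otx2* passed (−1.07, adjusted p = 0.0344 by edgeR), beside 2 of all genes.

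In cortex and hippocampus the *Rorb* h5/h5 and DBA/1J libraries overlapped for all 10 genes, beside 13.9% and 10.4% of genes that did not overlap. The log2 fold changes lay between −0.89 and 0.18 in cortex and between −0.46 and −0.21 in hippocampus, with standard errors of 0.34 to 1.44 and of 0.53 to 0.89. By edgeR 0 of the 10 passed in either region, beside 0% and 0.0118% of all genes, and DESeq2 called 0 as well. None had an unadjusted p under 0.05, beside 6.42% and 4.22% of all genes. In cortex the value of *Ttr* lay anywhere from −3.48 to 2.40 on leaving out 1 library. The direction in hippocampus rested on 1 library, since the median was −0.34 with all libraries and 0.17 without *Rorb* h5/h5 replicate 2.

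Between regions, the genes were highest in hippocampus and cerebellum and lowest in cortex. All 10 were called higher in hippocampus than in cortex (38.3% of all genes called, 19.0% higher), with log2 fold changes from 1.91 (*Enpp2*) to 4.07 (*Cldn2*) and *Ttr* at 3.72 ± 1.06 (SE, adjusted p = 0.0124 by edgeR). All 10 were also called higher in cerebellum than in cortex (71.2% of all genes called, 35.4% higher), from 1.28 (*Enpp2*) to 3.16 (*Otx2*), with *Ttr* at 2.61 ± 1.08 (adjusted p = 0.0424 by edgeR). DESeq2 called 9 of the 10 in cerebellum against cortex, *Sostdc1* being lost (adjusted p = 0.0770), and leaving out 1 animal gave 8 to 10. These folds depend on the replicate 2 cortices and hippocampi and on the cerebellum of *Rorb* h5/h5 replicate 3: without them, a choice made on these genes after their values were seen and so no support for the direction, *Ttr* was at 7.14 in hippocampus and at 5.87 in cerebellum against cortex. In the second list the same direction was seen, with 25 of 25 genes called higher in hippocampus and 23 of 25 in cerebellum. Of the 8 ependymal markers 8 were called higher in hippocampus and 6 in cerebellum, with medians of 1.39 and 0.62 against 2.92 and 1.87 for the second choroid plexus list.

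Between hippocampus and cerebellum, *Kl* (1.496 ± 0.556 SE, adjusted p = 0.0251 by edgeR) and *Sostdc1* (1.42 ± 0.57, adjusted p = 0.0360 by edgeR) were called higher in hippocampus, beside 73.7% of all genes called. With the animal as a block neither passed (adjusted p = 0.0932 and 0.123 by edgeR). The remaining 8 did not pass, with *Otx2* at −0.12 ± 0.31 and *Slc4a5* at 0.58 ± 0.56. The count of 2 depended on single animals. It was 0 without replicate 3 of DBA/1J or replicate 1 of *Rorb* h5/h5, and 1 without replicate 1 of DBA/1J or replicate 3 of *Rorb* h5/h5. It was 5 without replicate 2 of *Rorb* h5/h5, beside 13057 of all genes.

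Ratios to *Ttr* within a library do not depend on the size of that library. The ratio of *Otx2* to *Ttr* was higher in cerebellum than in hippocampus in 5 of 6 animals, by 1.68, 1.49 and 2.54 times in the 3 DBA/1J animals and by 2.63, 0.52 and 254 times in the *Rorb* h5/h5 animals. That of *Slc4a5* was higher in cerebellum in 6 of 6 animals, by a median of 1.45 times, and the lowest ratio was 1.10. The ratio of *Sostdc1* in cerebellum over hippocampus was between 0.26 and 0.95 in 5 animals; the sixth, *Rorb* h5/h5 replicate 3, had 0 counts of *Sostdc1* over 152 counts of *Ttr* and could not be placed. That of *Kl* was lower in 5 of 6, with a median of 0.73. For every gene, the ratios of *Rorb* h5/h5 replicates 2 and 3 come from the animals whose hippocampus or cerebellum held little *Ttr*. The 2 copies of a ratio come from 1 animal, and no test was made of these values.

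The *Rorb* h1/h1, h2/h2, h3/h3 and h4/h4 brains overlapped with the C57BL/6J brains for all 10 genes, beside 7.81%, 6.21%, 6.15% and 7.60% of all genes that did not overlap. The edgeR test called 0 of 10 in each of the 4 comparisons, which use the same 3 control brains, beside 0%, 0.136%, 0.164% and 0.703% of all genes, and DESeq2 also called 0. At an unadjusted p under 0.05 there were 0, 4, 0 and 1 of the 10, beside 4.23%, 7.45%, 10.4% and 13.2% of all genes. The 4 in *Rorb* h2/h2 were *Ttr* (−0.53 ± 0.18 SE, adjusted p = 0.538 by edgeR), *Slc4a5* (−0.48 ± 0.22), *Kl* (−0.39 ± 0.16) and *Clic6* (−0.37 ± 0.16), and the 1 in *Rorb* h4/h4 was *Ttr* (−0.22 ± 0.10). The medians of the 10 log2 fold changes were 0.04, −0.21, −0.17 and −0.05, against medians within 0.01 of 0 for all genes. Other markers moved as well: the 4 cerebellar markers were all below 0 in each of the 4 mutants, with medians of −0.18, −0.19, −0.28 and −0.49, the blood markers had medians of −0.27, −0.34 and −0.26 in *Rorb* h2/h2, h3/h3 and h4/h4, and the 6 oligodendrocyte markers were all below 0 in h3/h3 and h4/h4, with medians of −0.20 and −0.11. Not all markers went down. The blood markers summed to 819 to 1447 TPM in *Rorb* h1/h1 brains and to 943 to 1201 TPM in C57BL/6J brains. The meningeal fibroblast markers summed to 67.3 to 81.8 TPM in *Rorb* h2/h2 brains and to 60.2 to 70.6 TPM in C57BL/6J brains. The part of these markers in the values of the 10 genes was not tested. The C57BL/6J animals were 8.0 weeks old, and the *Rorb* h2/h2 brains of 9.4 weeks were the 2 lowest of their group in *Ttr*. In *Rorb* h2/h2 the second list was lower for 18 of 24 genes tested, with a median of −0.24, and in *Rorb* h3/h3 for 20 of 25, with a median of −0.13, whereas its median was 0.02 in *Rorb* h1/h1 and −0.02 in *Rorb* h4/h4. The *Rorb* h5/h5 brains overlapped with the DBA/1J brains for all 10 genes (11.8% of all genes did not overlap). Of the 10, 9 had values above 0, with a median of 0.35, and edgeR and DESeq2 called 0, beside 0% of all genes by edgeR, with 0 at an unadjusted p under 0.05, beside 5.80%. The cerebellar markers (4 of 4 above 0, median 0.69), the ependymal markers (7 of 8, median 0.33) and the meningeal fibroblast markers (6 of 8, median 0.26) lay on the same side. Without DBA/1J replicate 1, the brain with few cerebellar transcripts and the lowest DBA/1J brain for all 10 genes, the median of the 10 was 0.12.

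The spinal cord had 6 or 7 of the 10 genes above the count filter, *Ttr* and *Otx2* never being among them. *Slc4a5*, the bicarbonate cotransporter, was at 1.29, 1.54 and 1.53 TPM (133, 92 and 77 counts) in C57BL/6J cords and at 0.60, 0.99, 0.70 and 0.38 TPM (87, 46, 36 and 48 counts) in *Rorb* h4/h4 cords, and the groups did not overlap in TPM. It was the only one of the 7 genes tested that passed the edgeR test in that comparison, with a log2 fold change of −0.97 ± 0.22 (SE, adjusted p = 0.0389), beside 1.75% of all genes, and the only one at an unadjusted p under 0.05, beside 14.0%. With the replicate number as a block the value was −0.94 (adjusted p = 0.0524 by edgeR), and the call was lost in 5 of the 7 fits that leave out 1 library, namely without replicate 1 or 2 of C57BL/6J or without replicate 2, 3 or 4 of *Rorb* h4/h4, with values from −0.77 to −1.14 over all 7. The difference between the change in cord and that in brain was −0.92 ± 0.30 and did not pass the interaction test (adjusted p = 0.346 by edgeR, 0.00540% of all genes called). In *Rorb* h5/h5 cords *Slc4a5* was at 0.46, 0.24 and 0.41 TPM, against 0.54, 0.42 and 0.73 TPM in DBA/1J, with a log2 fold change of −0.97 ± 0.25 (adjusted p = 0.451 by edgeR).

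No other gene of the 10 was called by edgeR between mutant and control cords. The counts were 0 of 6 in *Rorb* h1/h1, 0 of 6 in h2/h2, 0 of 7 in h3/h3 and 0 of 7 in h5/h5, beside 0.289%, 2.09%, 1.01% and 0.00581% of all genes, with 0 by DESeq2. At an unadjusted p under 0.05 there were 0, 1, 1 and 3, beside 11.3%, 15.6%, 13.6% and 8.90% of all genes. The 3 in *Rorb* h5/h5 were *Slc4a5*, *Kl* (0.36 ± 0.15) and *Aqp1* (1.55 ± 0.60, adjusted p = 0.548 by edgeR). *Aqp1* was at 0.27, 0.20 and 0.73 TPM in *Rorb* h5/h5 cords and at 0.07, 0.15 and 0.18 TPM in DBA/1J cords. In the cord of *Rorb* h5/h5 replicate 3 the 8 meningeal fibroblast markers summed to 250 TPM and the second choroid plexus list to 282 TPM, whereas the other 23 cords had 25.2 to 43.8 TPM and 80.2 to 110 TPM; *Sostdc1* was at 2.22 TPM there, the highest of any cord. Without that library *Aqp1* was at 0.79 ± 0.57 (unadjusted p = 0.198 by edgeR) and *Kl* at 0.30 ± 0.16 (unadjusted p = 0.0916 by edgeR). In that fit *Sostdc1*, at 0.78 with all libraries, was at 0.00, while *Slc4a5* was at −0.96. The groups did not overlap for 3 genes in *Rorb* h1/h1 cord (*Ttr*, *Aqp1* and *Sostdc1*; 21.4% of all genes), 0 in h2/h2 (9.10%), 2 in h3/h3 (*Ttr* and *Slc4a5*; 8.50%), 3 in h4/h4 (*Ttr*, *Aqp1* and *Slc4a5*; 10.2%) and 1 in h5/h5 (*Aqp1*; 9.96%). *Otx2*, at 0 in all cords, could not be counted. For *Ttr* these separations rest on 4 to 6 counts in the C57BL/6J cords and 0 to 3 in the mutant cords. *Slc4a5* was at 0.92 to 1.2 TPM in *Rorb* h3/h3 cords, below all C57BL/6J cords, although its log2 fold change on the counts was 0.06, so the TPM and the counts differed for that gene.

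Between the control strains, *Clic6* was the gene called in brain. It was at 8.31, 13.9 and 9.40 TPM in C57BL/6J brains and at 4.52, 4.75 and 6.21 TPM in DBA/1J brains, so the strains did not overlap. The log2 fold change was −0.93 ± 0.17 (SE, adjusted p = 0.00763 by edgeR), 1 of 10 genes beside 11.2% of all genes, and it was −0.85 and still called without DBA/1J replicate 1, the brain with few cerebellar transcripts. *Folr1* was at −0.83 ± 0.29 (adjusted p = 0.102 by edgeR) and was called by DESeq2. In cord 3 of the 6 genes tested were called (21.3% of all genes), namely *Enpp2* (0.17 ± 0.04, adjusted p = 0.0121 by edgeR), *Slc4a5* (−0.76 ± 0.23, adjusted p = 0.0324 by edgeR) and *Clic6* (−0.59 ± 0.20, adjusted p = 0.0498 by edgeR). The cord call of *Clic6* was lost by DESeq2 (adjusted p = 0.0888), with DESeq2 size factors (0.0504), without the count filter (0.0690), with the replicate number as a block (0.0826), with sex as a term (0.0750) and without any 1 of the 6 cords, while its log2 fold change stayed between −0.58 and −0.61 in the first 5 of these fits. That of *Slc4a5* was lost with the block (0.0616), with sex as a term (0.0771) and without replicate 1 or 2 of either strain, and *Enpp2* was called in all of these fits. *Clic6* was at 1.00, 0.96 and 1.04 TPM in C57BL/6J cords and at 0.72, 0.62 and 0.67 TPM in DBA/1J cords.

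The same strain difference stood out when each gene was divided by *Ttr* in its own library. *Clic6* was at 13.3 to 19.1 TPM per 1000 TPM of *Ttr* in the 18 brains on C57BL/6J-derived backgrounds and at 7.30 to 12.005 in the 6 brains on DBA/1J, and the 2 sets did not overlap. It was the only one of the 9 genes without overlap, beside 1.17% of all genes that were lower without overlap on DBA/1J and 0.719% that were higher. *Folr1* was at 7.61 to 19.1 against 5.84 to 10.01, and *Kl* at 15.9 to 22.4 against 10.02 to 18.1. *Sostdc1* was at 4.28 to 8.14 against 6.03 to 8.06, so that its DBA/1J brains lay within the range of the others.

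**Figure D4:**
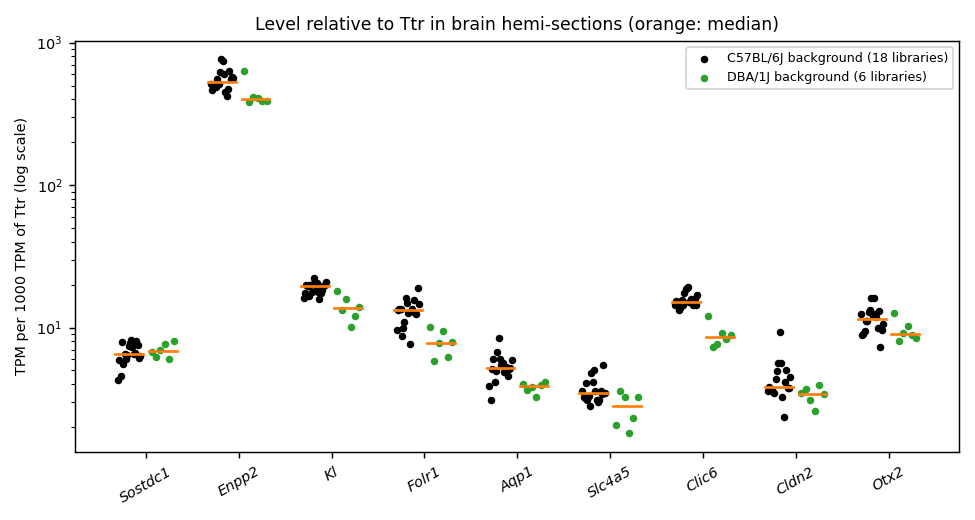
TPM of 9 genes per 1000 TPM of *Ttr* in the same brain library (log axis); black points are the 18 libraries on C57BL/6J-derived backgrounds, green points the 6 on DBA/1J, and orange bars are medians. *Clic6* is the gene whose 2 sets do not overlap.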

How the data were processed

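The 10 genes and the marker lists were chosen with earlier results of these data known. Per the labels and the study's methods, polyA RNA libraries were sequenced as paired ends, trimmed with Trim Galore, aligned to GRCm38 with STAR and quantified with RSEM, and the authors tested genes with DESeq2. The deposited expected counts are RSEM estimates per gene that need not be whole (5.07% were not) and were rounded before testing. The deposited TPM values were scaled by the authors for gene length and library size. The annotation version is not given in the sources used here.

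Counts were tested with edgeR 4.0.16 (quasi-likelihood, TMM, filterByExpr with a minimum count of 10) in R 4.3.3 over all genes, with Benjamini-Hochberg adjustment and a threshold of 0.05; fits used only the groups compared, and region comparisons carried genotype as a term. Alternatives were DESeq2 1.42.0, no filter, the replicate number as a block, sex as a term and leaving out each library. Deviations from group means used log2 CPM with a prior count of 2. Genes that did not overlap were counted on TPM among genes whose 2 group means averaged at least 0.1 TPM, which all members counted as not overlapping passed. The procedure was tested on simulated counts with 200 changed genes. It recovered 76.0% of genes changed by 1 on the log2 scale in the *Rorb* h1/h1 brain comparison, with 18 false calls. Between hippocampus and cortex it recovered 88.0%, with 10 false calls. The simulated counts followed the dispersion trend over all genes and lacked the wider spread between animals of the 10 genes. The recovery therefore does not give the power for those genes. The 10 genes, the second list and the 10 genes most like *Ttr* were the genes named. Replicates were separate animals. Brain and cord, and the 3 dissected regions, were taken as paired by animal from their sample numbers. Deviations of cord and brain correlated above 0.1 in 8 of 18 pairs on C57BL/6J-derived backgrounds and in 4 of 6 on DBA/1J. They did so in 3 of 6 hippocampus and cortex, 4 of 6 cerebellum and cortex and 2 of 6 hippocampus and cerebellum pairs. Between genotypes, same-numbered samples correlated above 0.1 in all pairs only in *Rorb* h1/h1 brain (0.114 to 0.199). The *Rorb* h1/h1 cords gave 0.0237 to 0.0464. No main test between genotypes was paired by number. Each library's depth was 32889755 to 59120536 counts, and limits that rest on a count of 0 cover counting error only.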

Additional observations from a re-analysis of the deposited data

Results flagged for a closer look

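In 57 sets of 4 libraries examined gene by gene, 3 held a library far from the other 3, and chance gives about 1 in 20. All 3 were spinal cords. *Ttr* was at 1.14 TPM in the *Rorb* h2/h2 cord of replicate 2, whereas the other 3 cords were at 0, 0.08 and 0.09 TPM. *Ttr* was also at 0.04 TPM in the *Rorb* h3/h3 cord of replicate 1, where the others were at 0; this is 1 count against 0, so any single count would have stood apart. *Sostdc1* was at 0.41 TPM in the *Rorb* h2/h2 cord of replicate 2, whereas the others were at 0.75, 0.76 and 0.78 TPM.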

How the results depend on the processing

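Apart from the fits that leave out a single library or animal, 120 recomputed counts of called genes and medians stayed within 1.5 times or 1 SD of their value and 11 moved; of the single-gene results, 248 kept their direction and side of the threshold and 12 kept their direction but lost the call. The cause was not tested for any of them. With the replicate number as a block, the count fell from 1 to 0 in *Rorb* h4/h4 cord, from 3 to 1 between the strains in cord and, with libraries paired by animal, from 2 to 0 between hippocampus and cerebellum, and it rose from 0 to 1 in *Rorb* h5/h5 cerebellum (*Otx2*); the block changed no other count. The genotype groups share only a replicate number. DESeq2 lost *Sostdc1* between cerebellum and cortex (adjusted p = 0.0770) and *Clic6* between the strains in cord. It gave 1 in *Rorb* h5/h5 cerebellum (48 of all genes), 1 between hippocampus and cerebellum and 2 between the strains in brain (2255 of all genes). Without the count filter, *Rorb* h5/h5 cerebellum had 3 (*Otx2*, *Enpp2*, *Cldn2*), beside 68 of all genes, and the strains in brain 2, beside 2270. Hippocampus against cerebellum then had 3 (*Kl*, *Sostdc1*, *Cldn2*), beside 13798 of all genes. With sex as a term the strains in cord had 1. Leaving out the hippocampi of replicate 2 and the cerebellum of *Rorb* h5/h5 replicate 3 gave 9 between hippocampus and cerebellum, beside 12545 of all genes. That choice was made after seeing the data and on these same genes. Leaving out 1 library at a time gave 0 to 1 in *Rorb* h4/h4 cord, 0 to 1 in *Rorb* h5/h5 cerebellum and 1 to 2 between the strains in cord; leaving out 1 animal, with both of its libraries, gave 0 to 5 between hippocampus and cerebellum and 8 to 10 between cerebellum and cortex. Leaving out 1 library put the median within-group SD of the 10 genes at 0.806 to 1.77 in hippocampus, lowest without *Rorb* h5/h5 replicate 2, and at 0.261 to 2.07 in cerebellum, lowest without *Rorb* h5/h5 replicate 3. The log2 fold change of *Ttr* changed sign on leaving out 1 library in *Rorb* h1/h1 brain (−0.11 to 0.15), *Rorb* h5/h5 cortex (−3.48 to 2.40), *Rorb* h5/h5 hippocampus (−0.85 to 0.17) and between the strains in brain (−0.38 to 0.12). Correlations with *Ttr* could not be had in cord, where *Ttr* was below the count filter, and are not given for the dissected regions, where the values fall into clusters. Depth limits the cord, where *Ttr*, *Folr1*, *Aqp1* and *Cldn2* had few counts.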

Other observations

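The 5 pituitary markers also varied between libraries. They summed to 1.96 to 283 TPM over the 24 brains, highest in *Rorb* h2/h2 replicate 1. In the dissected DBA/1J animals replicate 1 carried them in all 3 regions, at 137 TPM in cortex, 202 TPM in hippocampus and 90.0 TPM in cerebellum. Replicate 2 had 11.5, 19.8 and 4.75 TPM and replicate 3 had 1.71, 1.84 and 1.59 TPM. In *Rorb* h5/h5 replicate 1 had 79.6, 130 and 152 TPM, replicate 2 had 53.9, 218 and 28.6 TPM and replicate 3 had 2.81, 2.85 and 1.57 TPM. The 218 TPM in the *Rorb* h5/h5 replicate 2 hippocampus was the highest of the dissected libraries.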
